A study of Mus musculus with 4 samples.

Results

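The 9 genes described here encode enzymes that make, spend or refill S-adenosylmethionine, glycine, serine and the precursor of creatine in the pancreas: Gnmt, Gatm, Gamt, Mat2a, Ahcy, Shmt2, Phgdh, Psat1 and Mthfd2. They were taken by their symbols from spatial transcriptomes of 4 pancreas sections, and all 9 of 9 had unique molecular identifiers (UMIs, each standing for 1 captured probe molecule), among 20387 genes detected over tissue. The set was put together by pathway with earlier results of these data known, and Gnmt was selected on its low measured level in the sections labelled as Ehmt2 knockout, so the difference of Gnmt between genotypes is given as a description with no test. All mice were C57Bl/6, 4 weeks old and carried Pdx1-Cre, a transgene in which the Pdx1 promoter drives Cre recombinase in the pancreatic epithelium from development on. All had received caerulein, a cholecystokinin analogue that provokes acute pancreatitis, in 8 hourly intraperitoneal injections of 50 μg/kg after a fast of 12 h, and tissue was taken 18 h after the first injection. In 2 sections Ehmt2 was wild type (Ehmt2 +/+) and in 2 it was flanked by loxP sites on both alleles (Ehmt2 fl/fl), so that Cre would inactivate this histone H3 lysine 9 methyltransferase in epithelial cells but not in infiltrating or stromal cells. Sections of untreated mice were not analysed here.

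Acinar cells of the pancreas produce protein at a very high rate and are known for a heavy use of glycine, serine and methyl groups. MAT2A joins methionine and ATP into S-adenosylmethionine, the methyl donor that methyltransferases, EHMT2 among them, consume. GNMT, an enzyme best known from liver and also abundant in exocrine pancreas, uses the same donor to methylate glycine to sarcosine, and AHCY clears the S-adenosylhomocysteine left behind. GATM makes guanidinoacetate from arginine and glycine, and GAMT methylates guanidinoacetate to creatine. PHGDH and PSAT1 carry out early steps of serine synthesis, SHMT2 splits serine into glycine and a folate-bound carbon in mitochondria, and MTHFD2 oxidises that carbon.

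Sequence upstream of the start is shown for 3 of the genes, since Gnmt, Gatm and Shmt2 had the 3 highest log2 fold changes of the 9 between spots rich and poor in digestive enzymes. Each run holds the 220 bases from 250 to 31 before the annotated start in RefSeq on GRCm38.p6, written 5′ to 3′ on the gene's strand, which is the minus strand for all 3. Capitals mark CACCTG, an E-box of the kind read by basic helix-loop-helix factors such as the acinar factor PTF1A, and TGGGAA, the core read by RBPJ, searched on both strands. The Gnmt window lies at chr17:46729196-46729415, the Gatm window at chr2:122611308-122611527 and the Shmt2 window at chr10:127522475-127522694.
Gnmt: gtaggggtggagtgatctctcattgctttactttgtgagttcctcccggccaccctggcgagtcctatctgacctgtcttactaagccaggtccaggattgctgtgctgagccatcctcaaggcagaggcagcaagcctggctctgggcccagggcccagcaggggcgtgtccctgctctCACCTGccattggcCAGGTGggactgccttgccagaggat
Gatm: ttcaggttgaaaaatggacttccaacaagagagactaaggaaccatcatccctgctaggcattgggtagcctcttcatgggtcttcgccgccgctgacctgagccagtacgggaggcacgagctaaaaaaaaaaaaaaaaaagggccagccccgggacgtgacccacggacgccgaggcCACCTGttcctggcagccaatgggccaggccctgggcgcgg
Shmt2: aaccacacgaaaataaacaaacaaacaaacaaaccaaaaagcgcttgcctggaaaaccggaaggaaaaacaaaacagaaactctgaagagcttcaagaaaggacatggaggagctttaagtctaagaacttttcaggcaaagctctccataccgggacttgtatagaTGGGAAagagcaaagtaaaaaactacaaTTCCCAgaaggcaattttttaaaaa

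Gnmt held CACCTG from 70 to 65 bases before its start and the same letters on the other strand from 56 to 51. Gatm held it from 71 to 66 bases before its start, within 1 base of the first Gnmt match. None of the other members held it. CACCTG was thus in 2 of the 10 member windows, against 15.5% of the 32851 RefSeq promoter windows of the same length. Shmt2 held TGGGAA from 83 to 78 bases before its start and on the other strand from 55 to 50. It was the only one of the 9 genes with TGGGAA, which was in 1 of the 10 member windows and in 19.4% of all windows. The letters TGATGNAA, a composite site of ATF4 and C/EBP factors, were in none of the 10 windows of the 9 genes (Psat1 has 2) and in 3.05% of all windows. These matches describe the letters in the windows, and no binding was measured. In GENCODE on the same build Gnmt (ENSMUSG00000002769) spans chr17:46725664-46729168, Gatm (ENSMUSG00000027199) spans chr2:122594467-122611303 and Shmt2 (ENSMUSG00000025403) spans chr10:127517123-127522444.

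The sections differed in depth and in acinar content. Over tissue, Ehmt2 +/+ replicate 1 held 43803829 UMIs with a median of 6312 per spot, and the other 3 sections held between 7000825 and 8697030 UMIs with medians from 763 to 940. Digestive enzyme genes took 63.0% and 50.7% of UMIs in the Ehmt2 +/+ sections and 21.4% and 20.6% in the Ehmt2 fl/fl sections. The chi-square per gene between the summed counts of a pair of sections, which grows with depth, was 175 for the Ehmt2 +/+ pair and 12.8 for the Ehmt2 fl/fl pair, and Ehmt2 +/+ replicate 2 stood at 121 and 143 from Ehmt2 fl/fl replicates 1 and 2. Levels are given as UMIs per 1000000 UMIs outside 36 digestive enzyme genes unless another scale is named. The level of 1107 olfactory receptor genes, which the pancreas is not known to use, served as a measure of background, and its median was 0.68 in Ehmt2 +/+ replicate 1 and 11.2, 10.7 and 16.3 in Ehmt2 +/+ replicate 2 and Ehmt2 fl/fl replicates 1 and 2. The levels of 16 acinar genes that are no digestive enzymes summed to 92765 and 63037 in the Ehmt2 +/+ sections and to 16138 and 14735 in the Ehmt2 fl/fl sections. Of the 16, 15 were lower in both Ehmt2 fl/fl sections. Most of each sum came from Sycn, Zg16 and Gp2, which were at 31285, 27446 and 15835 in Ehmt2 +/+ replicate 1. The acinar factor gene Ptf1a was at 73.9 and 48.7 against 39.6 and 32.3. The levels of 10 macrophage genes summed to 273 and 386 against 1418 and 1164, and 10 fibroblast genes to 1242 and 1415 against 2966 and 2735. Y-linked Ddx3y, Kdm5d, Eif2s3y and Uty had at most 1 UMI in each Ehmt2 +/+ section and from 36 to 150 in the Ehmt2 fl/fl sections, so sex and genotype cannot be told apart. Ehmt2 itself was at 19.7, 3.8, 10.4 and 11.9 UMIs per 1000000 UMIs of all genes (CPM), so its level did not check the labels. A spot covers several cells, and fewer acinar cells in it cannot be told apart from less RNA per acinar cell.

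Gnmt, Gatm and Gamt, the enzymes that spend glycine or methyl groups on sarcosine and creatine, were each lower in both Ehmt2 fl/fl sections than in either Ehmt2 +/+ section. Gatm, which catalyses the first step of creatine synthesis, was at 1240.6 in Ehmt2 +/+ replicate 1, 552.0 in Ehmt2 +/+ replicate 2, 137.8 in Ehmt2 fl/fl replicate 1 and 141.4 in Ehmt2 fl/fl replicate 2. The Ehmt2 fl/fl sections were nearly equal and the lower Ehmt2 +/+ section lay well above them, a ratio of group means of 6.42. Gamt, which catalyses the second step, was at 178.3 and 111.2 in the Ehmt2 +/+ sections and at 54.5 and 57.5 in the Ehmt2 fl/fl sections. The groups did not overlap, with a ratio of means of 2.58. Gnmt, the gene chosen for this difference, was at 43.6 and 20.5 in the Ehmt2 +/+ sections, from 708 and 88 UMIs. It was at 3.8 and 7.0 in the Ehmt2 fl/fl sections, from 21 and 47 UMIs.

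Those Gnmt levels in the Ehmt2 fl/fl sections lay below the background measure. Of the olfactory receptor genes, 96.4% and 97.0% were at or above Gnmt in Ehmt2 fl/fl replicates 1 and 2, against 3.61% in Ehmt2 +/+ replicate 2 and 0% in Ehmt2 +/+ replicate 1. Gatm and Gamt were above every olfactory receptor gene in all 4 sections. Gatm was 12.8 and 8.67 times the median olfactory receptor gene in the Ehmt2 fl/fl sections, and Gamt 5.08 and 3.53 times. Gnmt did not exceed the median olfactory receptor gene in the Ehmt2 fl/fl sections, whereas Gatm and Gamt exceeded it in every section. Background differs between probes, and the muscle gene Acta1 had 2 and 5 UMIs in the Ehmt2 fl/fl sections. Whether the Gnmt counts there stand above the background of the Gnmt probe was not tested.

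**Figure D1:**
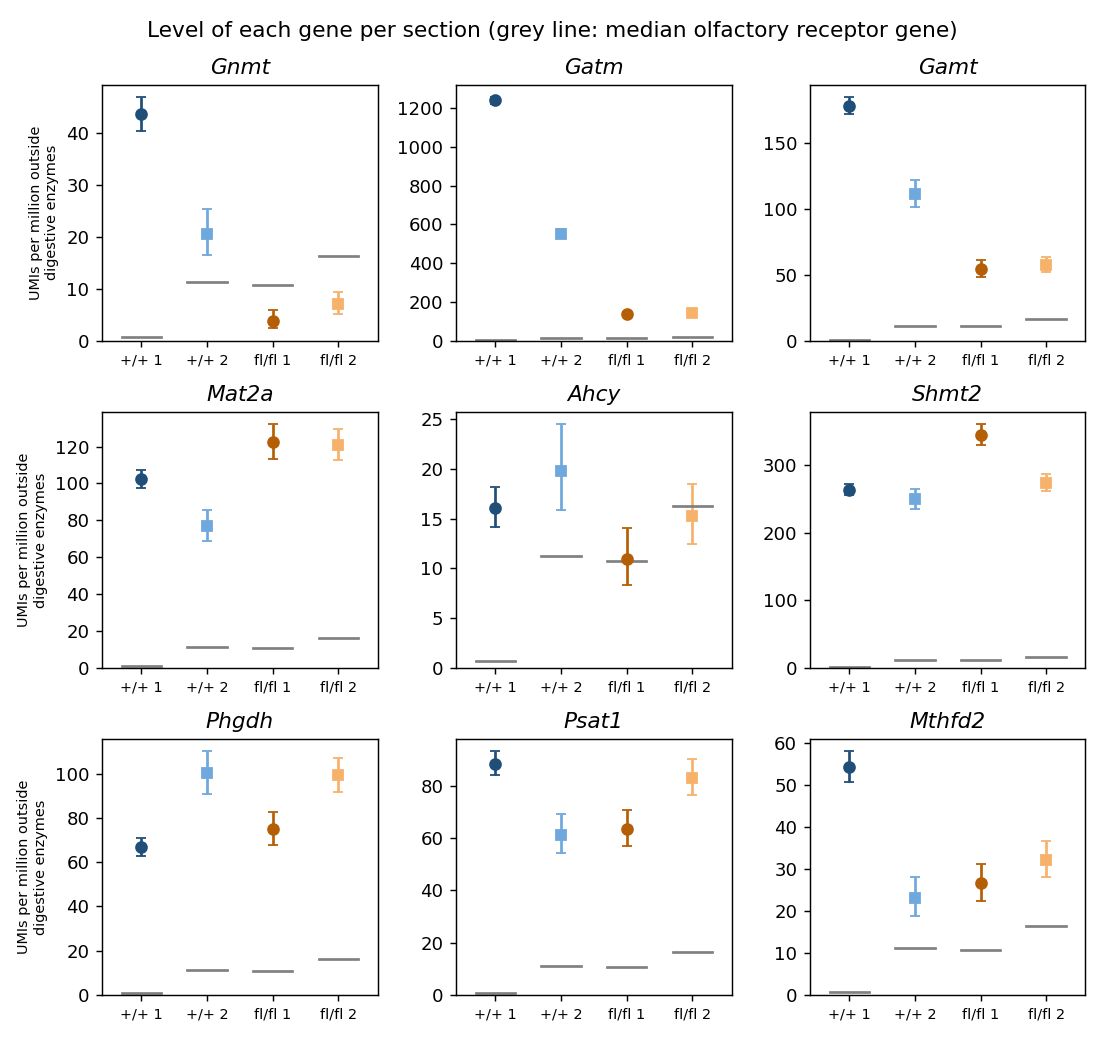
Level of each of the 9 genes (UMIs per 1000000 outside the digestive enzymes, linear axis from 0) in the 4 sections. Points are single sections, bars are exact 95% Poisson intervals that cover counting error only, and grey lines mark the median olfactory receptor gene of the section. Gatm and Gamt sit far above the grey line in every section, Gnmt falls below it in both Ehmt2 fl/fl sections and Ahcy lies at it there.

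Of the methionine cycle pair, Mat2a was higher on this scale in both Ehmt2 fl/fl sections, as were 47.7% of genes outside the digestive enzymes. The log2 fold change of Mat2a in the edgeR fit given below was -0.76. Ahcy was near background in the Ehmt2 fl/fl sections. Mat2a, the enzyme that makes S-adenosylmethionine outside the adult liver, was at 102.5 and 77.0 in the Ehmt2 +/+ sections and at 122.5 and 120.8 in the Ehmt2 fl/fl sections. The groups did not overlap, but the ratio of means was 1.36 and the gap between them was smaller than the distance between the 2 Ehmt2 +/+ sections. Ahcy was at 16.1 and 19.8 against 10.9 and 15.3, and 50.0% and 56.4% of olfactory receptor genes were at or above it in the Ehmt2 fl/fl sections. Its level there could not be told from this background measure.

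On this scale the serine and folate genes did not follow Gnmt and Gatm. In the edgeR fit given below their log2 fold changes were all negative, from -1.76 for Mthfd2 to -0.84 for Shmt2. Shmt2, the mitochondrial enzyme that makes glycine from serine, was at 263.8 and 250.0 in the Ehmt2 +/+ sections and at 344.9 and 274.2 in the Ehmt2 fl/fl sections, a ratio of means of 1.20 with no overlap. Phgdh, the first enzyme of serine synthesis, was at 66.8 and 100.3 against 75.1 and 99.3, and each group held 1 low and 1 high section. Psat1, which takes the second step, was at 88.6 and 61.3 against 63.6 and 83.2, so its groups overlapped as well. Mthfd2, the mitochondrial folate enzyme, was at 54.3 and 23.1 against 26.5 and 32.2, high in Ehmt2 +/+ replicate 1 alone. In that section it was 80.1 times the median olfactory receptor gene, and in the others 1.97 to 2.47 times. For Phgdh and Psat1 the ratios of means were 1.04 and 0.98.

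Gnmt was selected on this difference and is left out of the counts that follow. On this scale 3 of the other 8 genes (Gatm, Gamt and Ahcy) were lower in both Ehmt2 fl/fl sections and 2 (Mat2a and Shmt2) were higher, against 5.68% and 47.7% of the 20356 genes outside the digestive enzymes. On the CPM scale 2 were lower (Gatm and Gamt) and 5 higher (Mat2a, Shmt2, Phgdh, Psat1 and Mthfd2), against 0.795% and 90.2% of 20387 genes. The smallest two-sided p that an exact permutation test of 2 against 2 sections can give is 0.333, so no single level passed a test of its own. Among the 5589 genes above every olfactory receptor gene in mean level, 7 of the members were left, of which 2 were lower and 2 higher, against 16.4% and 43.8% of those genes. Gatm and Gamt were lower, and Mat2a and Shmt2 higher, on both scales, though Mat2a and Shmt2 had negative log2 fold changes of -0.76 and -0.84 in the fit with TMM factors, and Ahcy, Phgdh, Psat1 and Mthfd2 overlapped on one of the scales.

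In the edgeR fit across all genes, none of the 8 genes tested was called between genotypes at an adjusted p under 0.05. The fit called 0.0399% of 20066 genes lower and 0.0548% higher in the Ehmt2 fl/fl sections, and 1005 genes had an unadjusted p under 0.05. The log2 fold change of Gatm was -4.02 with a standard error (SE) of 1.39 and an edgeR adjusted p of 0.550, and that of Gamt was -2.62 (SE 1.04, edgeR adjusted p of 0.764). Those of the other 6 lay between -1.76 for Mthfd2 and -0.76 for Mat2a, each with an edgeR adjusted p of 0.872. The fitted log2 fold change of Gnmt was -3.93, given as a description. The median gene stood at 0.25 in this fit and at 1.64 without TMM factors, edgeR's scaling between libraries, which were 0.282 for Ehmt2 +/+ replicate 1 and 0.995 to 2.11 for the other sections. Relative to the median gene, Gatm stood at -4.27 with TMM factors and -3.37 without, Gamt at -2.87 and -2.09, and Shmt2 at -1.08 and -0.49. A fit of only the 5589 genes above every olfactory receptor gene, chosen after seeing the data, had another median gene. Relative to that one, Gatm stood at -2.90, Gamt at -1.59 and Shmt2 at 0.05. The sizes rested on Ehmt2 +/+ replicate 1: without that section the log2 fold change was -2.19 for Gatm (edgeR adjusted p of 0.00651), -1.20 for Gamt (edgeR adjusted p of 0.0623) and -2.15 for Gnmt, with 1.02% of genes called higher and 0.751% lower. Without Ehmt2 +/+ replicate 2 the edgeR adjusted p of Gatm was 2.44e-11 and that of Gamt 1.89e-14, but that fit called 46.7% of genes higher and 36.3% lower. Without Ehmt2 fl/fl replicates 1 and 2 in turn it was 0.9997 and 0.9999 for both genes. DESeq2 called Gatm and Gamt lower, with adjusted p values of 0.00024 and 0.0192, with 1.4% of genes called lower and 0.0491% higher.

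The next comparison asked how the genes varied with acinar content inside each section. Spots over tissue were ranked by the share of their UMIs from Prss2, Cpa1, Ctrb1, Cela3b and Pnlip, enzymes that acinar cells secrete, and cut into 3 equal groups. The top group (enzyme-rich spots) and the bottom group (enzyme-poor spots) were compared within each section with the digestive enzyme genes left out. Of the 9 genes, 5 were called higher in the enzyme-rich spots (Gnmt, Gatm, Gamt, Shmt2 and Psat1) and none lower, against 8.24% of 19918 genes called higher and 2.05% called lower. Mat2a, Ahcy, Phgdh and Mthfd2 were not called.

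Gnmt stood at 38.0, 6.5, 1.7 and 2.1 in the enzyme-poor spots of Ehmt2 +/+ replicates 1 and 2 and Ehmt2 fl/fl replicates 1 and 2, and at 47.6, 28.2, 4.6 and 11.2 in the enzyme-rich spots. It was higher in the enzyme-rich spots in 4 of 4 sections, from 3 and 4 UMIs in the enzyme-poor spots of the Ehmt2 fl/fl sections. Gnmt was below the median olfactory receptor gene in the enzyme-rich spots of these sections too, which stood at 8.77 and 13.0. In the enzyme-poor spots of Ehmt2 +/+ replicate 2 that median was 16.9, also above Gnmt. The counting intervals of enzyme-poor and enzyme-rich spots overlapped in Ehmt2 +/+ replicate 1 and Ehmt2 fl/fl replicate 1. Of 10513 genes with at least 50 UMIs in every section, which Gnmt did not have, 7.12% were higher in all 4. The log2 fold change of Gnmt was 1.17 (SE 0.23, edgeR adjusted p of 0.00145), and it ran from 0.87 to 2.62 with 1 section left out. Gatm stood at 1213, 349.9, 87.3 and 97.6 in the enzyme-poor spots and at 1228, 639.4, 188.9 and 186.2 in the enzyme-rich spots. It was near level in Ehmt2 +/+ replicate 1, where even the enzyme-poor spots had a median share of 40.1%, and about doubled in the other 3 sections, with ratios of 1.83, 2.16 and 1.91. Its log2 fold change was 1.13 (SE 0.27, edgeR adjusted p of 0.00733). Gamt was higher by ratios of 1.13, 1.32, 1.04 and 1.48, with a log2 fold change of 0.70 (SE 0.18, edgeR adjusted p of 0.0110).

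Shmt2 was also higher in the enzyme-rich spots in 4 of 4 sections, against the 7.12% of genes given above. It stood at 253.0, 211.3, 252.5 and 183.7 in the enzyme-poor spots and at 269.3, 283.5, 440.7 and 351.6 in the enzyme-rich spots. In the enzyme-poor spots the genotypes overlapped. In the enzyme-rich spots both Ehmt2 fl/fl sections lay above both Ehmt2 +/+ sections on this scale. How many of all genes did so in these spots was not counted, and over whole sections 47.7% did. The median enzyme share of the enzyme-rich spots was 45.9% and 39.9% in the Ehmt2 +/+ sections and 23.2% and 21.3% in the Ehmt2 fl/fl sections. The genotype log2 fold change of Shmt2 fitted with TMM factors in those spots was -0.55. The log2 fold change over the 4 sections was 0.97 (SE 0.21, edgeR adjusted p of 0.00257). Psat1 was higher in the enzyme-rich spots by ratios of 1.06, 1.16, 1.27 and 1.28 (log2 fold change 0.63, SE 0.16, edgeR adjusted p of 0.0088).

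Phgdh, which feeds Psat1 in the same pathway, was lower in level in the enzyme-rich spots, with ratios of 0.92, 0.74, 0.89 and 0.77. A fall on this scale was common: 39% of 10513 genes with at least 50 UMIs in every section were lower in all 4. The fitted log2 fold change of Phgdh was 0.13 (SE 0.15, edgeR adjusted p of 0.622), where TMM factors place the median gene at -0.03. For Mat2a the ratios were 0.90, 0.83, 1.02 and 1.03, for Ahcy 0.84, 0.63, 1.25 and 0.87, and for Mthfd2 0.82, 0.77, 1.24 and 0.86. The 95% intervals of their log2 fold changes ran from -0.00 to 0.63 for Mat2a, from -0.21 to 0.48 for Ahcy, from -0.16 to 0.43 for Phgdh and from -0.11 to 0.49 for Mthfd2.

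Background fell along the same contrast. The median olfactory receptor gene went from 16.9, 12.8 and 19.7 in the enzyme-poor spots to 7.65, 8.77 and 13.0 in the enzyme-rich spots of Ehmt2 +/+ replicate 2 and Ehmt2 fl/fl replicates 1 and 2, and from 0.69 to 0.75 in Ehmt2 +/+ replicate 1. The summed level of 10 islet genes was also lower in the enzyme-rich spots of each section, as were the sums of 10 macrophage and 10 fibroblast genes. The macrophage sum moved only from 306 to 269 in Ehmt2 +/+ replicate 1. The summed level of 10 ductal genes was instead higher in the enzyme-rich spots in 3 of 4 sections, going from 5227, 3826 and 2673 to 7834, 7398 and 7185 in Ehmt2 +/+ replicate 2 and Ehmt2 fl/fl replicates 1 and 2, and from 9544 to 9232 in Ehmt2 +/+ replicate 1. Over whole sections most of the ductal sum came from Krt18, Krt8 and Epcam. Cftr was near background, at 0.83 to 1.27 times the median olfactory receptor gene, so the sum does not count duct cells. The part of these lists in the members' contrast was not tested. Without TMM factors, where the median gene stood at -0.44, 6804 of 19918 genes were called in all. Gnmt, Gatm and Shmt2 were called higher in that fit, and Gamt and Psat1 were not. Among the 5589 genes above every olfactory receptor gene, a set chosen after seeing the data that leaves out Gnmt and Ahcy, Gatm and Shmt2 were called and Gamt and Psat1 were not, with edgeR adjusted p values of 0.0613 and 0.0818. The fit of those genes called 1128 of them in all. Leaving out single sections changed calls as well, with 275 to 3794 genes called. Without Ehmt2 +/+ replicate 1 all 5 genes were called, with 13.8% of genes called higher and 5.34% lower, and the log2 fold change of Gnmt was 2.62. Without Ehmt2 +/+ replicate 2 only Shmt2 of the 5 was called, and the edgeR adjusted p was 0.0620 for Gnmt, 0.0804 for Gatm, 0.107 for Gamt and 0.0707 for Psat1. With either Ehmt2 fl/fl section left out only Gnmt of the 5 was called, and the edgeR adjusted p without replicates 1 and 2 in turn was 0.205 and 0.147 for Gatm, 0.0863 and 0.157 for Gamt, 0.0938 and 0.0852 for Shmt2, and 0.115 and 0.108 for Psat1.

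**Figure D2:**
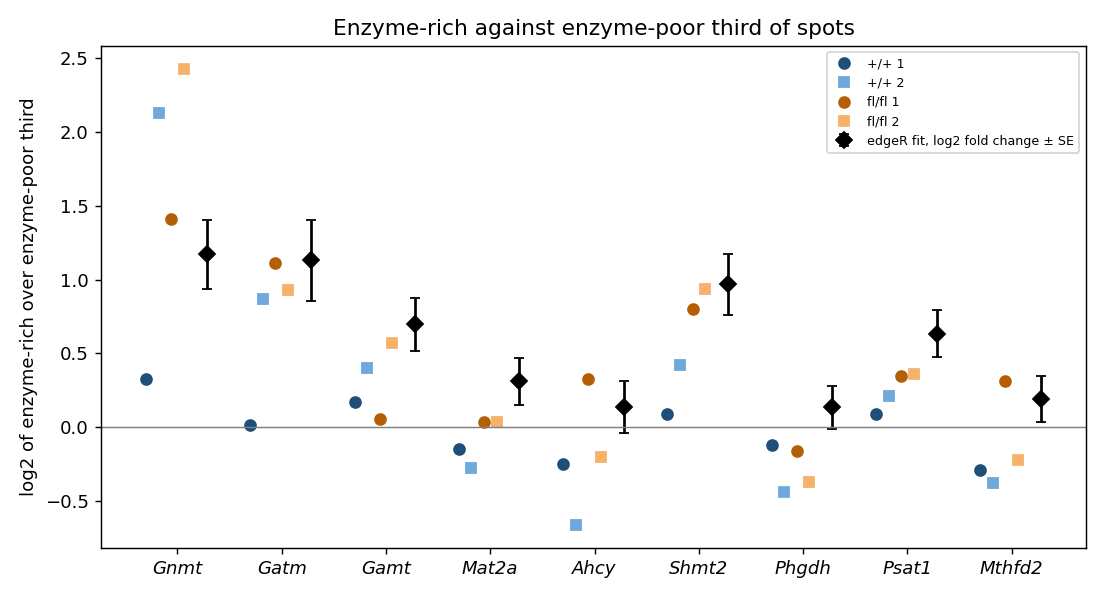
log2 ratio of the level in the enzyme-rich spots to that in the enzyme-poor spots, for each gene and section (coloured points), beside the log2 fold change of the edgeR fit with its SE (black diamonds). Gnmt, Gatm, Gamt, Shmt2 and Psat1 are above 0 in all 4 sections, Gnmt from levels below the background measure in both Ehmt2 fl/fl sections. Of 10513 genes with at least 50 UMIs in every section, 7.12% are above 0 in all 4 and 39% below. The diamonds of all genes but Gnmt lie above the mean of their points, with the median gene at -0.03 in the fit.

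Tested between genotypes, the enzyme-rich contrast of none of the 8 genes differed at an adjusted p under 0.05. That fit called 0.221% of 19918 genes for a larger contrast in the Ehmt2 fl/fl sections and 0.0452% for a smaller one. The difference was 0.51 on the log2 scale for Gatm with a 95% interval from -0.70 to 1.72, 0.54 for Shmt2 (interval from -0.37 to 1.45) and 0.18 for Psat1 (interval from -0.51 to 0.86), and the intervals leave room for differences of over 1 log2 unit for Gatm and Shmt2.

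**Figure D3:**
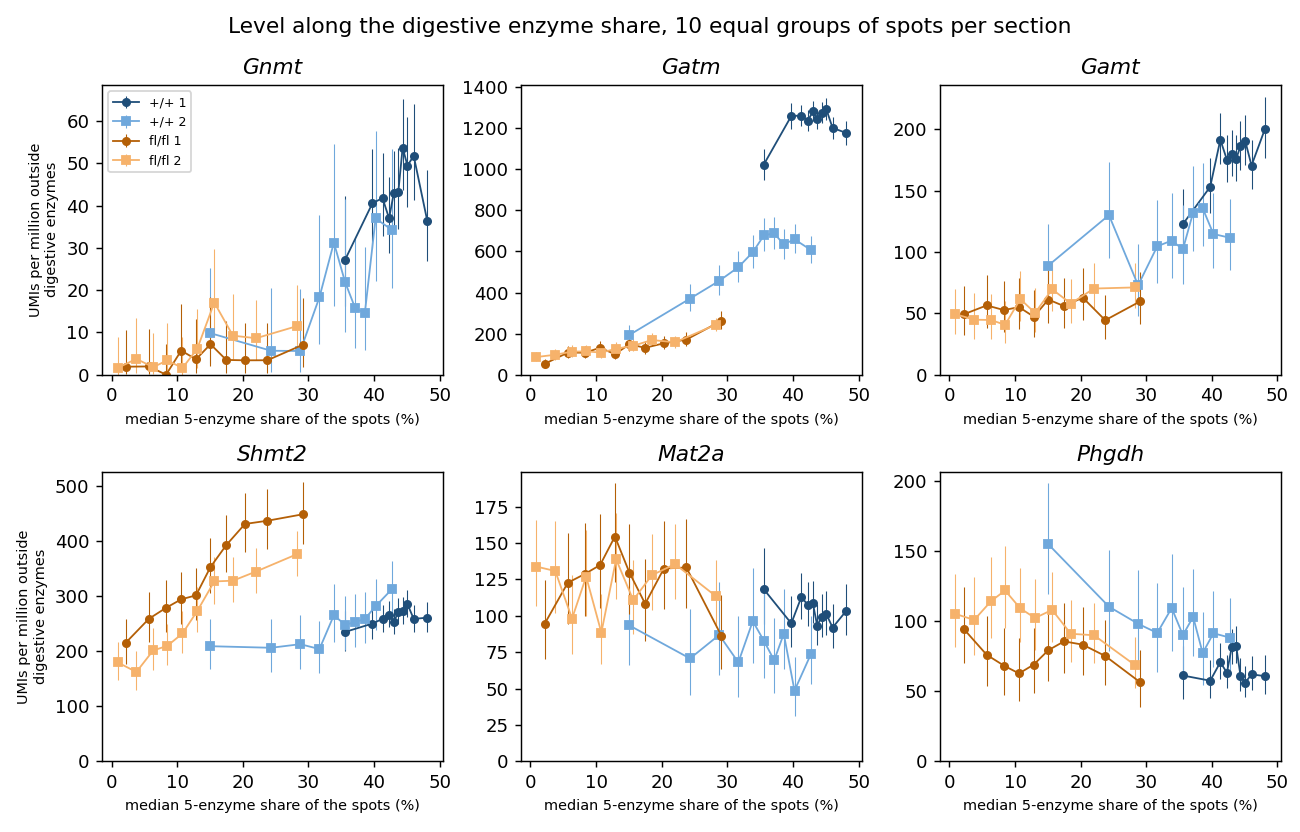
Level (UMIs per 1000000 outside the digestive enzymes) of 6 genes in 10 equal groups of spots per section, placed at the group's median share of 5 digestive enzymes (percent of UMIs), with exact 95% Poisson intervals for counting error. Gatm climbs with the share in Ehmt2 +/+ replicate 2 and both Ehmt2 fl/fl sections, Shmt2 climbs along a higher line in the Ehmt2 fl/fl sections, and Mat2a and Phgdh do not climb.

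Spots of the same class of enzyme share were then set side by side across sections, in classes chosen after seeing the data. The Ehmt2 fl/fl sections held few spots as rich as those of Ehmt2 +/+ replicate 1. Of 10 equal groups of spots per section, the richest had a median share of 29.1% and 28.2% in the Ehmt2 fl/fl sections. The poorest had 35.6% in Ehmt2 +/+ replicate 1. Shares were not matched between sections inside a class. In spots with a share of 30 to 40%, of which the sections held 915, 5631, 264 and 275, Gatm was at 1190 and 615.7 in the Ehmt2 +/+ sections and at 296.4 and 313.0 in the Ehmt2 fl/fl sections. The groups did not overlap at this share, and the edgeR log2 fold change was -2.01 (SE 0.45, edgeR adjusted p of 0.0190), with 0.2% of 13021 genes called lower and 0.131% called higher. In spots of 20 to 30% share Gatm was at 767.9 and 423.1 against 181.6 and 176.9, with a log2 fold change of -1.62 (SE 0.45, edgeR adjusted p of 0.0594). Only 64 spots of Ehmt2 +/+ replicate 1 lay in that class.

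The other members rested on smaller counts in these spots. At 30 to 40% share Gamt was at 143.2 and 115.2 against 52.9 and 88.9, from 10 and 25 UMIs in the Ehmt2 fl/fl sections (edgeR adjusted p of 0.810). Gnmt was at 35.6 and 21.1 in the Ehmt2 +/+ sections, had 0 of 188920 UMIs in Ehmt2 fl/fl replicate 1, which allows a level of up to 15.9 (3 UMIs of that total), and was at 7.1 from 2 UMIs in Ehmt2 fl/fl replicate 2. Shmt2 ran the other way, at 254.7 and 248.5 against 476.4 and 373.5. At 20 to 30% share it was at 163.7 and 205.8 against 441.6 and 350.9, with log2 fold changes of 1.20 at 20 to 30% and 0.36 at 30 to 40% share, neither called. Psat1 was at 81.5 and 69.7 against 111.2 and 120.9 at 30 to 40% share and did not overlap, though it had overlapped over whole sections. It had 21 and 34 UMIs in the Ehmt2 fl/fl sections there and a log2 fold change of 0.22. The share of all genes that did not overlap in these classes was not counted. Over whole sections 47.7% of genes were higher in both Ehmt2 fl/fl sections.

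**Figure D4:**
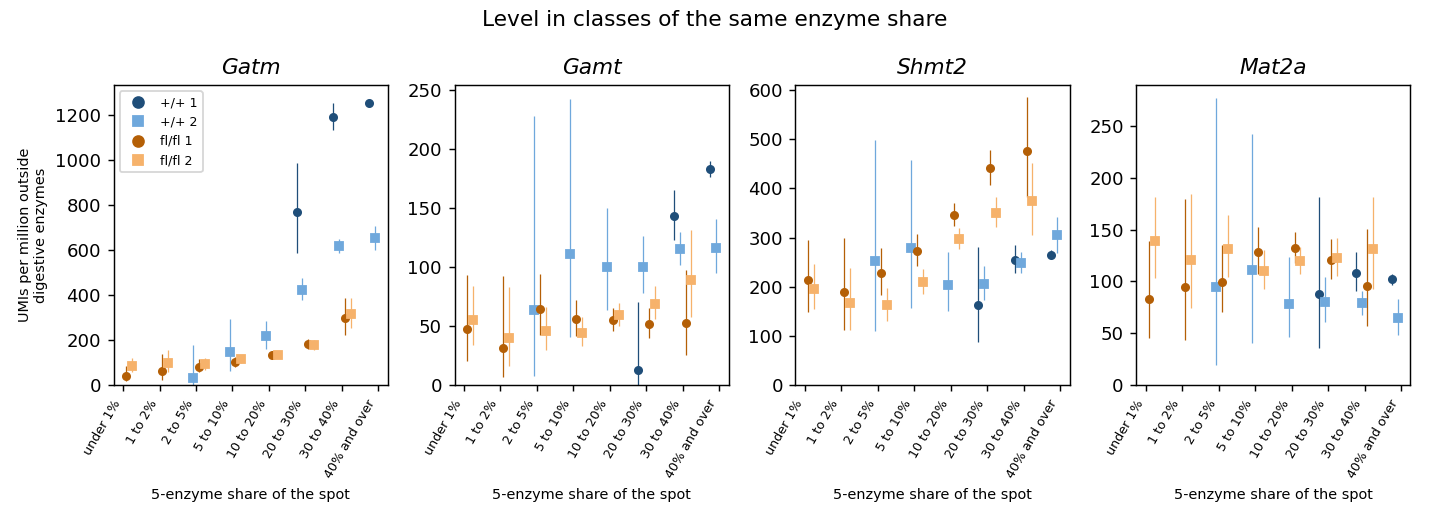
Level (UMIs per 1000000 outside the digestive enzymes) of Gatm, Gamt, Shmt2 and Mat2a in classes of the spots' 5-enzyme share, with exact 95% Poisson intervals. Classes with under 50 spots in a section are left out, so Ehmt2 +/+ replicate 1 appears from 20% on and the Ehmt2 fl/fl sections up to 40%. From 20% on Gatm is higher in both Ehmt2 +/+ sections and Shmt2 in both Ehmt2 fl/fl sections. How many of all genes do so was not counted.

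A further scale, also chosen after seeing the data, set each gene against the summed UMIs of the 16 acinar genes that are no digestive enzymes. Gatm was then at 13.4 and 8.76 UMIs per 1000 acinar UMIs in the Ehmt2 +/+ sections and at 8.54 and 9.60 in the Ehmt2 fl/fl sections. These overlapped, as did those of Gnmt, at 0.470 and 0.326 against 0.237 and 0.473. All other members were higher per acinar UMI in both Ehmt2 fl/fl sections, from Gamt at 1.92 and 1.76 against 3.38 and 3.90 to Shmt2 at 2.84 and 3.97 against 21.4 and 18.6. On this scale 98.7% of genes were higher in both Ehmt2 fl/fl sections, 0.0835% were lower and 1.2% overlapped, Gatm among these. Gnmt was selected on its low level in the Ehmt2 fl/fl sections, so its overlap here is a description and is not set against these shares. The acinar list, whose UMIs are mostly of Sycn, Zg16 and Gp2, was itself lower in the Ehmt2 fl/fl sections, and Gnmt lay below the background measure there.

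**Figure D5:**
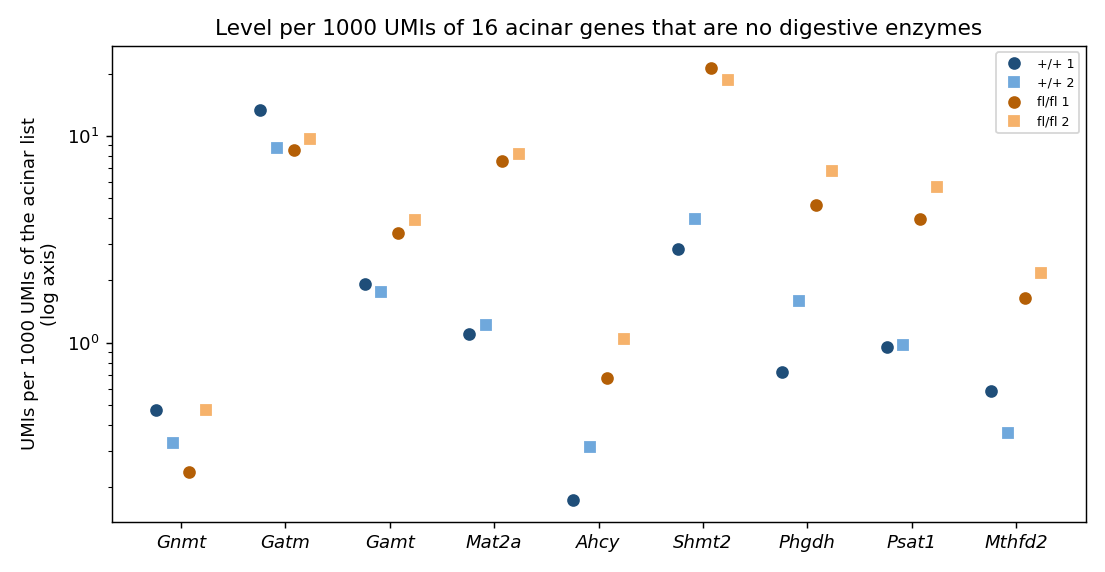
UMIs of each gene per 1000 UMIs of 16 acinar genes that are no digestive enzymes, 1 point per section on a log axis. Gatm and Gnmt overlap between genotypes, Gnmt having been selected on its low level in the Ehmt2 fl/fl sections. The other 7 genes lie higher in both Ehmt2 fl/fl sections.

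The pathways around the 9 genes were read from 6 lists, 91 genes in all, of which 89 were tested. Between genotypes 0 of 89 were called by edgeR. By level, 15 of the 89 were lower and 38 higher in both Ehmt2 fl/fl sections, against 5.68% and 47.7% of all genes outside the digestive enzymes. Among the 5589 genes above every olfactory receptor gene in mean level, 16.4% were lower and 43.8% higher. How many list genes lay above that background was not counted. The median log2 fold change was -0.75 over the lists against 0.25 over all genes tested. Next come the 6 list genes with the largest fitted change among those that had at least 50 UMIs in every section and whose genotype groups did not overlap, so that their separation was fixed by the choice. Cbs, which condenses homocysteine with serine, was at 371.2 and 179.3 against 66.0 and 67.4. Gcat, which breaks threonine-derived intermediates down to glycine, was at 294.0 and 257.2 against 60.9 and 62.4, and Ggh, a folate hydrolase, at 164.6 and 88.1 against 41.3 and 38.4. Wars, a tRNA synthetase, was at 280.1 and 88.1 against 39.6 and 39.0, and the stress gene Nupr1 at 19362 and 5366 against 2637 and 2692. Arg1, which splits the arginine that GATM also uses and is abundant in activated macrophages, was at 10.2 and 48.3 in the Ehmt2 +/+ sections and at 672.8 and 502.9 in the Ehmt2 fl/fl sections (log2 fold change 3.75, SE 1.16, edgeR adjusted p of 0.290).

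Between enzyme-rich and enzyme-poor spots, 32 of the 89 list genes were called higher and 3 lower, against 8.24% and 2.05% of all genes tested. Their median log2 fold change was 0.27 against -0.03 over all genes. All genes tested include 1095 olfactory receptor genes, of which 0 were called higher and 9 lower. The shares called in this fit among genes above that background were not counted. The ATF4 target list, genes of the amino acid response that also drives serine synthesis, had 16 of 19 called higher with a median of 0.70. This list and the others were chosen with earlier results of these data known, and their counts come from the main fit alone. Of the transsulfuration and glutathione list 5 of 9 were called higher and 1 lower, of the serine and glycine list 5 of 17 higher, of the methionine cycle list 3 of 19 higher and 1 lower, of the creatine list 2 of 8 higher and 1 lower, and of the folate cycle list 1 of 17 higher. Asns, which makes asparagine, rose by a log2 fold change of 1.66 (SE 0.32, edgeR adjusted p of 0.00104), and Cbs by 1.57 (SE 0.26, edgeR adjusted p of 0.000252). In the fit Slc6a9, a glycine transporter, rose by 1.15, Gcat by 1.09 and Trib3, an ATF4 target, by 1.03, with edgeR adjusted p values of 0.000843, 0.00147 and 0.00214. In level Trib3 fell from 54.3 and 46.0 to 47.8 and 36.5 in the Ehmt2 +/+ sections. It rose from 32.0 and 23.9 to 85.2 and 85.7 in the Ehmt2 fl/fl sections. Slc6a9 and Gcat were near level in Ehmt2 +/+ replicate 1 (275.8 to 267.4 and 284.8 to 287.6) and rose in the other sections. Arg1 was lower by a log2 fold change of -1.06 (edgeR adjusted p of 0.00117), opposite to Gatm. Asns went from 257.1 and 174.9 in the enzyme-poor spots to 918.1 and 777.0 in the enzyme-rich spots of the Ehmt2 fl/fl sections, and from 1246 and 587.8 to 1402 and 1065 in the Ehmt2 +/+ sections.

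Genes whose levels ran most like Gnmt and Gatm were sought over the 10 spot groups of each section, among 3184 genes with at least 200 UMIs in every section, by the lowest Pearson r over the 4 sections. For Gatm these were Dmbt1, Reg2, Rnh1, Reg3b and Fau, with lowest r from 0.92 to 0.93. Reg2 and Reg3b encode secreted proteins that acinar cells make in pancreatitis, and Rnh1 encodes a ribonuclease inhibitor. For Gnmt they were Gfer, Alad, Clstn1, Slc6a9 and Tsta3, with lowest r from 0.63 to 0.68, over groups that held as few as 0 Gnmt UMIs. Among the members, Gatm and Shmt2 ran together in all 4 sections, with r from 0.64 to 0.90, Gatm and Gnmt with r from 0.53 to 0.79, and Gatm and Phgdh with r from -0.85 to 0.20. The points of a section share a library and their depth differs, so these values describe the sections and carry no p.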

How the data were processed

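FFPE pancreas sections, 4 in all, processed by the authors with CytAssist and Visium kits, were analysed. Reads had been counted by Space Ranger (2.0.1 per the file headers) with the mm10 reference and the first version of the mouse probe set. The deposited values are UMI counts per feature and spot, not normalized. A probe panel captures genes with unequal efficiency, so levels were not compared between genes, except with the olfactory receptor genes as a measure of background. Here 304 features marked as deprecated were left out, and a spot was taken as over tissue above the valley of its section's histogram of log10(UMIs + 1), since the tissue marks carry no barcodes. That left 6183, 10285, 7587 and 8443 spots. The 13898 barcodes found in all sections are positions of the slide, not shared cells.

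Counts were summed per section and tested with edgeR 4.0.16 in R 4.3.3 (quasi-likelihood test, TMM factors, a minimum count of 10 in filterByExpr and Benjamini-Hochberg adjusted p under 0.05). The enzyme-rich contrast had the section as a block. DESeq2 1.42.0 was an alternative. Scripts were tested on simulated data. Named genes were all members, at most 6 genes of the pathway lists per contrast (the largest changes among those called, or, with none called, among genes with at least 50 UMIs and groups that did not overlap) and the 5 genes most like Gnmt and Gatm. The members and all lists were chosen with earlier results of these data known. The labels number the samples but do not state that each is its own mouse, so p-values measure the spread between sections. Poisson intervals of levels cover counting error only, and intervals of log2 fold changes were taken from the SE of the edgeR fit.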

Additional observations from a re-analysis of the deposited data

Results flagged for a closer look

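Outside the tissue, 5 of the 9 genes had more than 3 UMIs in every section. How many of all genes did so was not counted. Spots off the tissue entered the fits only in the setting that took every spot with at least 1 UMI. The lowest number over the 4 sections was 22 UMIs for Shmt2, 11 for Phgdh, 9 for Gatm, 9 for Psat1 and 6 for Mat2a. Gatm had 255, 41, 15 and 9 UMIs in 8006, 4051, 6421 and 5893 spots off the tissue, which is 1181, 392.4, 128.9 and 85.6 per 1000000 outside the digestive enzymes and has the order of its levels over tissue between genotypes. Groups of 2 sections are too small to test for a section that stands apart. Among the members other than Gnmt, which was not tested, none had an enzyme-rich contrast that was called different between genotypes.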

How the results depend on the processing

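Between genotypes, 19 genes were called in all. DESeq2 called 296, library sizes without TMM factors 195 and upper-quartile factors 3, leaving out 1 section each gave 0 to 16701, and, in settings chosen after seeing the data, genes above every olfactory receptor gene gave 0 (948 at an unadjusted edgeR p under 0.05), spots of 20 to 30% share 81 and spots of 30 to 40% share 43. Where a genotype was left with 1 section, that section was assumed to vary like the others. Gatm and Gamt kept a negative log2 fold change in every setting run, from -4.94 to -1.62 and -3.46 to -0.22. That of Gnmt ran from -5.02 to -1.62. Gnmt was selected on its low level in the Ehmt2 fl/fl sections, so its sign is a description. Gnmt was not fitted at 20 to 30% share, and Gnmt and Ahcy are not among the genes above background. Without TMM factors 6 members turned positive: Mat2a 1.34, Ahcy 0.40, Shmt2 1.15, Phgdh 0.90, Psat1 0.88 and Mthfd2 0.56, with the median gene at 1.64. Among genes above background Mat2a was at 0.22 and Shmt2 at 0.046. At 20 to 30% share Mat2a was at 0.70, Shmt2 at 1.20, Psat1 at 0.59 and Mthfd2 at 0.23, and at 30 to 40% share Shmt2 was at 0.36 and Psat1 at 0.22. Leaving out 1 section each, Mat2a ran from -1.54 to 0.45, Shmt2 from -1.55 to 0.11, Psat1 from -2.08 to 0.034 and Mthfd2 from -2.69 to 0.13. The cause was not tested. For enzyme-rich against enzyme-poor spots, 2049 genes were called, 6804 without TMM factors, 1128 among genes above background and 275 to 3794 with 1 section left out. Without TMM factors Mat2a was at -0.081, Ahcy at -0.23, Phgdh at -0.27 and Mthfd2 at -0.17, and among genes above background Mat2a was at -0.041, Phgdh at -0.22 and Mthfd2 at -0.13. The difference of that contrast between genotypes was called for 53 genes, and for 141 without TMM factors, where Gamt turned to 0.061. Ahcy turned to -0.045 with the top and bottom of 5 equal groups of spots. Signal over background limits what Gnmt and Ahcy can show in the Ehmt2 fl/fl sections. No paired analysis was possible between genotypes because the replicate numbers follow the order of the samples and pair nothing.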

Other observations

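The 9 genes were found in very different shares of spots. In Ehmt2 +/+ replicate 1, Gatm had a UMI in 81.1% of spots over tissue, Shmt2 in 45.6% and Gnmt in 10.6%. In the other 3 sections Gatm had one in 9.4% to 19.6% of spots, Shmt2 in 9.73% to 21.5% and Gnmt in 0.277% to 0.846%. The median depth per spot was 6312 UMIs in the first section and 763 to 940 in the others, so these shares are not compared.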
